A study of Caenorhabditis elegans with 17 samples.

Results

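The transposon entries described here are annotated transposon transcripts of Caenorhabditis elegans to which antisense small RNAs mapped. They were chosen by their antisense reads: an entry was taken when its antisense reads summed to at least 100 over the 12 total small RNA libraries of the series. This gave 269 members of 351 transposon entries, in tables of 56373 transcript entries. The lowest sums among members were 102 reads (K02A2.6) and 104 reads (F31A9.6), and the highest sums outside were 94 (ZK250.1) and 90 (C36C5.13). The antisense levels in these 12 libraries are therefore given as a description. The sense reads and the 5 NRDE-3 libraries were not used in the choice.

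In worms, most endogenous siRNAs are 22G-RNAs, short antisense RNAs with a 5′ G that RNA-dependent RNA polymerases such as RRF-1 and EGO-1 copy from a target transcript and that Argonaute proteins then carry. Transposon transcripts are well-known targets of this pathway: the mutator proteins, PIWI-bound piRNAs (21U-RNAs) and nuclear Argonautes keep transposons silent in the germline. NRDE-3 is a nuclear Argonaute of somatic cells, which enters the nucleus when it is loaded with siRNAs. ERI-1 is an exonuclease needed for 26G-RNAs, which feed the NRDE-3 pathway, and eri-1 mutants respond more strongly to dsRNA. The RNA exosome degrades RNA from its 3′ end; DIS-3 and EXOS-10 are its nucleases and EXOS-1 is a cap subunit, while the helicase MTR-4 delivers nuclear RNA to it. FIB-1 and NOL-56 are nucleolar proteins of box C/D snoRNPs.

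There was 1 library for each of 17 conditions, all from worms grown at 20°C. At the L3 stage, total small RNA came from dis-3(ust56), exos-1(ust57) and N2 (wild type), and from eri-1(mg366) worms with dis-3(ust56) and both rrf-2(ok210) and rrf-1(pk1417), with dis-3(ust56), with exos-1(ust57), with exos-10(ok2269), or alone. NRDE-3-associated small RNA was isolated by anti-FLAG immunoprecipitation (IP) of 3xFLAG::GFP::NRDE-3 at the L3 stage from worms of the same 5 genotypes. Total small RNA also came from eri-1(mg366) worms fed dsRNA against fib-1, nol-56 or mtr-4, or the empty vector L4440. Their label gives young adults, while the extraction text names L3 worms for total RNA, so their stage is given here as labelled. Below, strains that join eri-1(mg366) with other mutations are written without alleles, as in eri-1 dis-3 and eri-1 dis-3 rrf-1 rrf-2 (in the plots with semicolons), and the NRDE-3 library of eri-1(mg366) alone is called the NRDE-3 control. The dis-3(ust56) allele is an amino acid substitution, so its own reads check nothing, and the exos-1(ust57) allele is a deletion made with CRISPR/Cas9. Per the study, exos-1(ust57) and exos-10(ok2269) homozygotes have few progeny, whereas dis-3(ust56) is fertile at 20°C but with a reduced brood size. The study reports a more severe fertility defect when eri-1 and dis-3(ust56) are joined. The exos-10 gene itself was not analysed here. With 1 library a condition, no difference below was tested over replicates, and the printed intervals (95%) cover counting error only.

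The libraries held 5094172 to 17155933 counted reads. Levels are antisense reads per 1000000 (RPM) of a normalization number, which is all counted reads without those sense to rRNA or to protein-coding genes. The NRDE-3 library of eri-1 dis-3 was much the shallowest after this subtraction, with a normalization number of 145736 and 1406 antisense member reads, so that 3 reads there already equal 20.6 RPM. Targeted genes were checked where the allele allows it. Sense reads of rrf-1 and rrf-2 were 13 and 1 in eri-1 dis-3 rrf-1 rrf-2, against 51 and 25 in eri-1 dis-3. Sense exos-1 reads were 2 in exos-1(ust57), against 10 in N2. With eri-1(mg366) these sense reads were too few to show the deletion, with 1 read in eri-1 exos-1, against 2 in eri-1(mg366). They were 70 in the NRDE-3 library whose label gives exos-1(ust57), against 47 in the NRDE-3 control. Per 1000000 sense protein-coding reads these last values were 18.3 and 20.1, so the deletion was not visible in the sense reads of that library. Antisense reads on exos-1 were also few. N2 had 19 and exos-1(ust57) had 2, while eri-1(mg366) had 6 (2.36 RPM) and eri-1 exos-1 had 1 (0.158 RPM). The NRDE-3 control had 10 (7.07 RPM), the library labelled exos-1 had 14 (4.97 RPM) and that with exos-10 had 100 (34.0 RPM). Whether the labelled library carries the deletion was not tested, and it is called here by its label. The antisense reads of the fed gene were 10.2%, 6.01% and 16.4% of the normalization number in the fib-1, nol-56 and mtr-4 RNAi libraries.

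The members differed widely in siRNA load. Their antisense sums over the 12 total libraries had a median of 1011 reads (quartiles 636 and 2051), and the highest was 59325 reads for T27C5.9, 7.61% of all member reads. The 12 most abundant members held 38.3%, and the 269 members together held 99.7% of all antisense reads on transposon entries. T27C5.9 had 3101 and 3881 reads in dis-3(ust56) and exos-1(ust57), against 5343 in N2, and 1845, 1627, 1320 and 646 reads in eri-1 dis-3 rrf-1 rrf-2, eri-1 dis-3, eri-1 exos-1 and eri-1 exos-10, against 2484 in eri-1(mg366). It was the most abundant member in every total library except eri-1 exos-1, where R13D11.7 had 1321 reads and T27C5.9 had 1320. The next members by sum were T05C3.3 (31387 reads), Y102A5D.1 (30350), K03D3.6 (29289) and R13D11.7 (28607).

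By the files' annotation 13 of the 269 members (4.83%) were pseudogenic transcripts, as were 7 of the 82 entries under the threshold (8.54%), and the 269 entries belong to 267 genes because F44E2.2 has 3 isoforms among them. No member's gene ID was in the Ensembl annotation used here, so members were placed only by the other genes that share their clone name (262 of 269 placed, WBcel235). Of these, 35, 42, 26, 57, 66 and 36 lay on chromosomes I, II, III, IV, V and X. The 78 placed entries under the threshold gave 24, 9, 9, 11, 9 and 16, so chromosome I held 13.4% of placed members and 30.8% of placed entries under the threshold, and chromosome V held 25.2% and 11.5%. The median distance to the nearer chromosome end was 3.24 Mb for members and 3.32 Mb for the others. The genes of clone T27C5 span V:17395674-17430166, those of F57G4 V:17623530-17650527, those of ZC132 V:4296682-4319967 and those of R52 II:2104524-2132475. Transposon family names are not given in the tables, and members are named here by their transcript.

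Many members cannot safely be read as single loci. Bowtie2 in its default mode puts a read that fits several places on one of them, and identical copies then share their reads about equally. Among the 227 members with at least 500 reads, 130 fell into 12 sets of at least 3 entries with near-equal counts. The entries of a set had alike counts across all 17 libraries, NRDE-3 libraries included, and sums over the total libraries within 1.5-fold. The largest set, named here for K10B3.2, held 36 entries on 6 chromosomes with 573 to 782 reads each; a second, named for ZK250.4, held 24 entries with 1508 to 2148 reads, and another, named for Y45F10D.1, held 19 entries with 1709 to 1960. These sets were formed from the counts themselves and are used only as descriptions. No sequences were compared, so shared reads and separate copies with alike levels could not be told apart. For these entries the level of a set, rather than of one of its entries, is therefore the safer quantity to compare.

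Small RNAs on the members were nearly all antisense in total RNA. The antisense share of member reads was 94.9% to 97.8% over the 12 total libraries, and 96.7% of the pooled reads (95% interval 96.6% to 96.7%, Clopper-Pearson). Of the members, 169 were at least 95% antisense and 7 had more sense than antisense reads. These 7 were the isoforms F44E2.2a, F44E2.2b and F44E2.2c, then F15A2.7, ZK682.1, R52.2 and Y48G10A.10. F15A2.7 had 862 sense and 310 antisense reads, and R52.2 had 407 sense and 124 antisense reads. In the NRDE-3 libraries the antisense share was lower: 61.6% with dis-3 (59.6% to 63.6%), 87.8% with the label exos-1, 86.9% with exos-10 and 69.5% with dis-3 rrf-1 rrf-2, against 87.0% in the NRDE-3 control (86.5% to 87.5%). Sense member reads there were 6018 RPM with dis-3, 2469 with exos-1, 1462 with exos-10 and 4840 with dis-3 rrf-1 rrf-2, against 1690 RPM in the control. The 2 libraries with the dis-3 allele were thus the ones with the highest sense RPM, and they also had the smallest normalization numbers. Their raw sense member reads were 877 with dis-3 and 3432 with dis-3 rrf-1 rrf-2. Those of the others were 6963 with exos-1, 4305 with exos-10 and 2391 in the control.

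**Figure D1:**
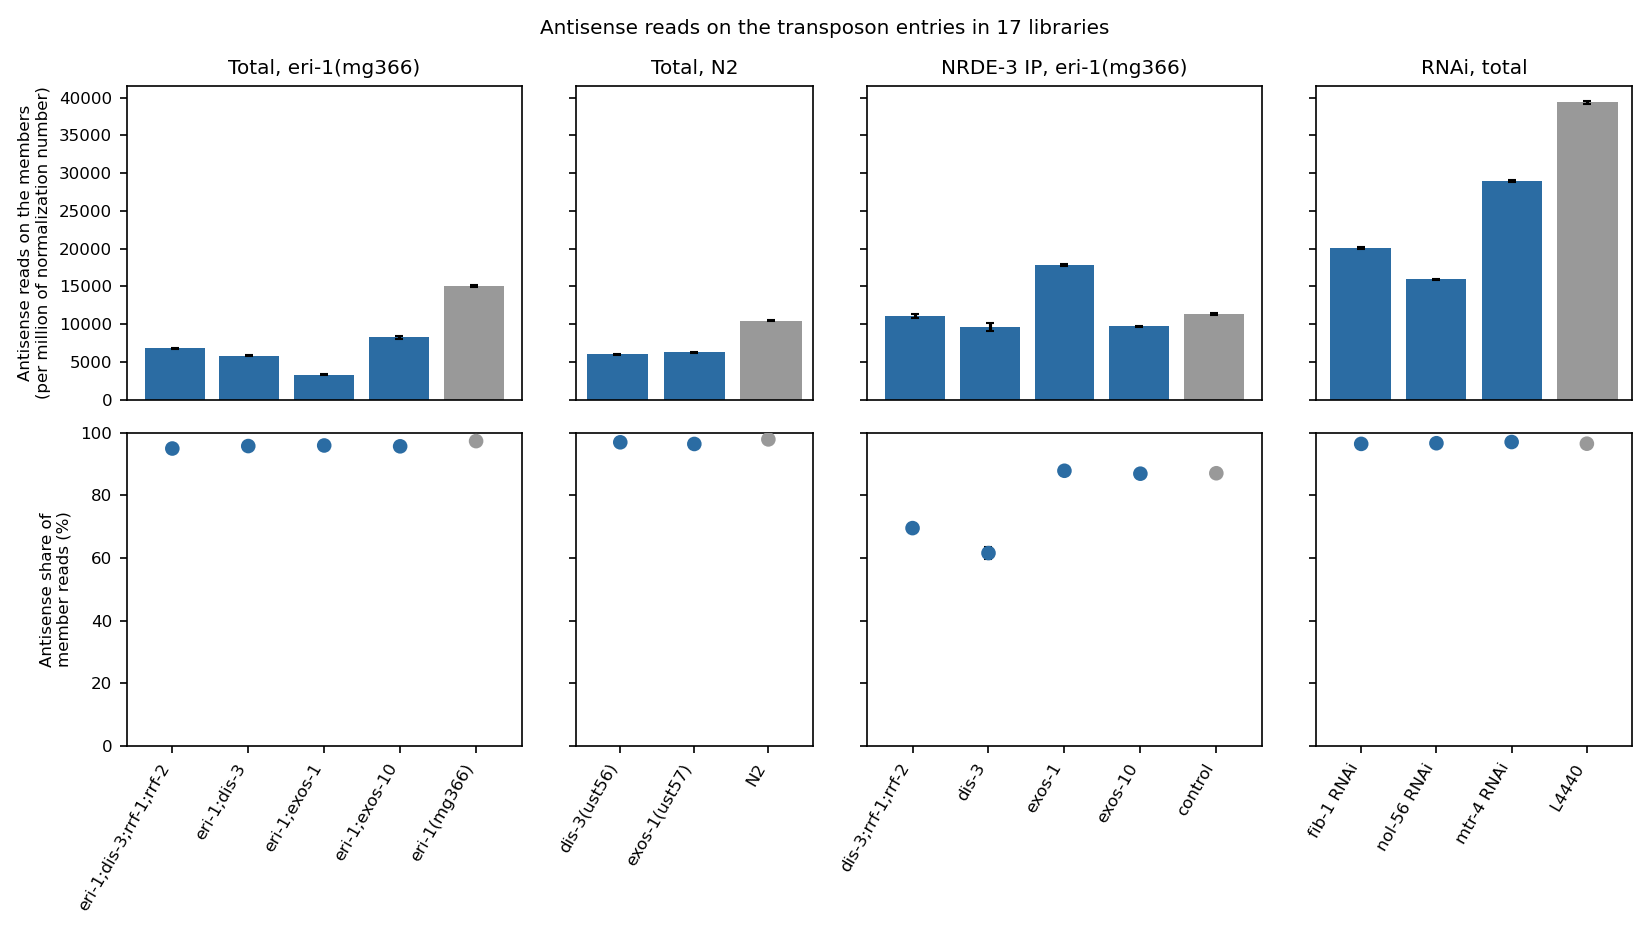
Top, summed antisense reads of the 269 members per 1000000 of the normalization number in each of the 17 libraries (error bars, exact Poisson 95% intervals, counting error only; grey, control library of the panel). Bottom, antisense share of member reads in percent with Clopper-Pearson intervals; the total libraries sit between 94.9% and 97.8%, and the NRDE-3 libraries between 61.6% and 87.8%.

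In N2-background worms the exosome mutants had fewer transposon siRNAs in sum. The members summed to 5997 RPM for dis-3(ust56), 6278 RPM for exos-1(ust57), against 10452 RPM in N2. These levels were 1.74-fold lower for dis-3(ust56) (1.72 to 1.76) and 1.66-fold lower in exos-1(ust57) (1.64 to 1.69). In dis-3(ust56), 16 members were at least 2-fold higher and 89 at least 2-fold lower of 261 with at least 10 reads in either library. Over all entries that met this minimum, 13% were at least 2-fold higher and 36.5% at least 2-fold lower, and the median log2 ratio was -0.71 for members and -0.73 for all entries, so the members lay close to the rest of the antisense reads. In exos-1(ust57), 27 of 266 members were at least 2-fold higher and 103 lower, against 25.4% and 15.2% of all entries; the median log2 ratio was -0.44 for members and 0.07 for all entries. Germline piRNAs were counted beside them, as sense reads on 21U-RNA genes: 2082 RPM for dis-3(ust56), 5544 RPM for exos-1(ust57), against 6235 RPM in N2. Set per piRNA read, an alternative chosen after seeing the data, the members were higher in dis-3(ust56) than in N2 (ratio 1.72), while exos-1(ust57) stayed below N2 (ratio 0.675). Per sense miRNA read the dis-3(ust56) ratio was 0.348. The stage-regulated miRNAs differed too: sense let-7 was 454 RPM for dis-3(ust56), 1700 RPM for exos-1(ust57), against 3265 RPM in N2, and sense lin-4 was 1045 RPM and 328 RPM, against 284 RPM in N2. Their part in the member sums was not tested.

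With eri-1(mg366) the sum was lower in every exosome mutant library. It was 5823 RPM in eri-1 dis-3, 3310 RPM in eri-1 exos-1 and 8230 RPM in eri-1 exos-10, against 15095 RPM in eri-1(mg366). That is 2.59-fold lower in eri-1 dis-3 (2.55 to 2.64), 4.56-fold lower in eri-1 exos-1 (4.48 to 4.64) and 1.83-fold lower in eri-1 exos-10 (1.80 to 1.87). In eri-1 dis-3, 4 of 249 members were at least 2-fold higher and 177 lower (all entries, 10.9% and 41.3%). In eri-1 exos-1, 7 of 253 were higher and 223 lower (all entries, 20.6% and 30.7%), and in eri-1 exos-10, 14 of 245 were higher and 105 lower (all entries, 38.6% and 15.2%). The member median log2 ratios were -1.38, -2.37 and -0.87 in that order, beside -0.77, -0.32 and 0.58 for all entries. The 3 comparisons share the eri-1(mg366) library. Sense piRNA reads were 10212, 3228 and 11781 RPM in eri-1 dis-3, eri-1 exos-1 and eri-1 exos-10, against 15414 RPM in eri-1(mg366), and per piRNA read the eri-1 exos-1 ratio was 1.05. Per antisense protein-coding read the ratios were 0.670 for eri-1 dis-3, with 12 members higher and 63 lower, and 0.428 for eri-1 exos-1, with 16 higher and 182 lower. By all counted reads the eri-1 exos-10 ratio was 0.266. Sense let-7, a miRNA of late larval stages, was 128, 74.8 and 353 RPM in these mutants, against 2086 RPM in eri-1(mg366), and sense lin-4 was 1337, 427 and 1963 RPM, against 2145 RPM; the part of germline content or stage in the member sums was not tested.

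**Figure D2:**
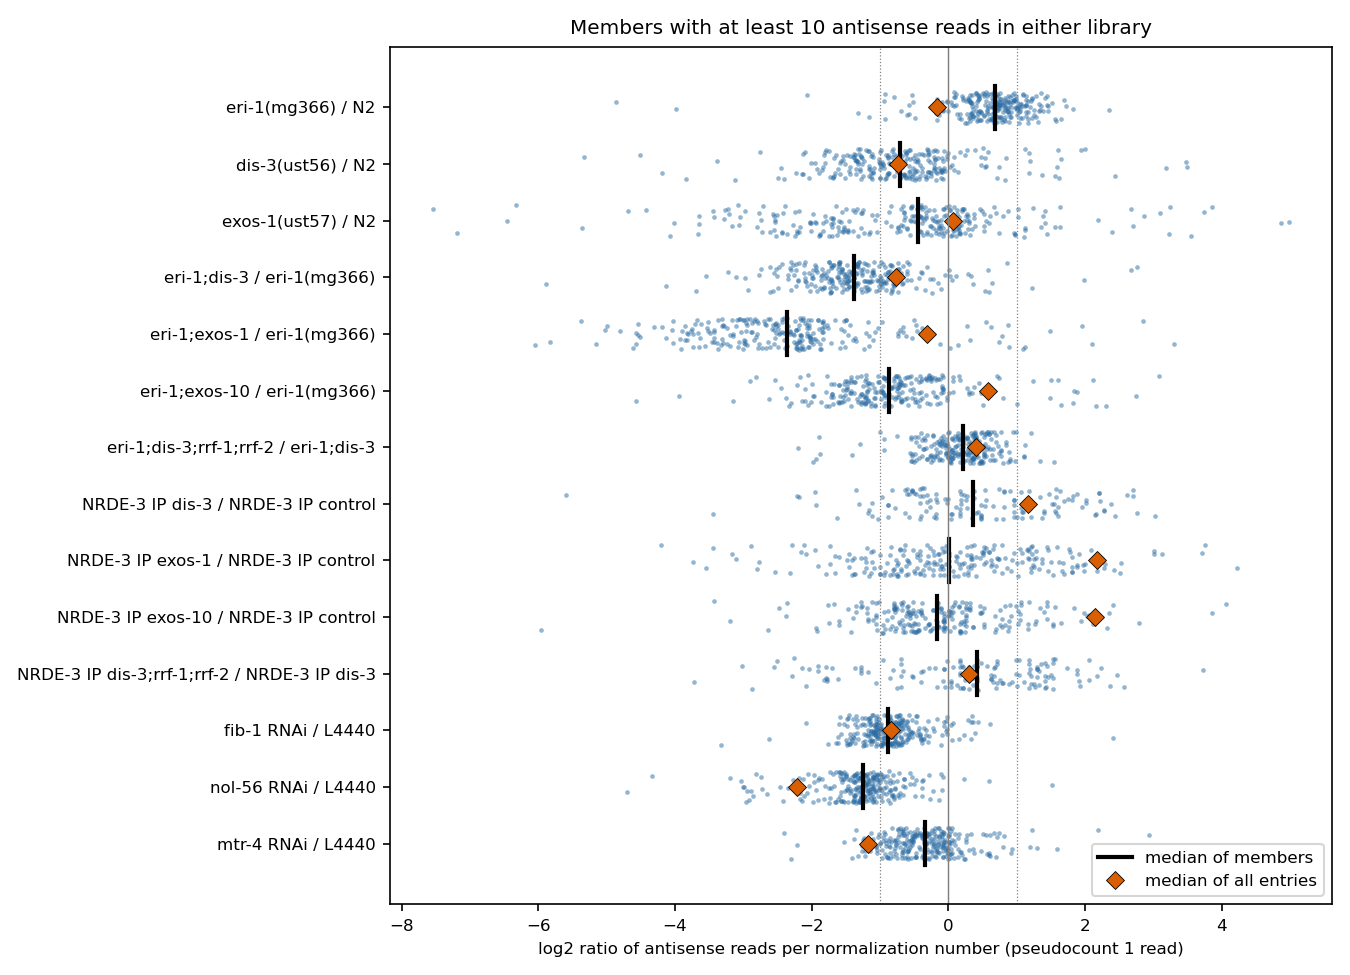
Log2 ratio of antisense reads per normalization number (x axis, pseudocount 1 read) for each member with at least 10 reads in either library, in 14 comparisons; black bars are member medians and orange diamonds the medians of all entries. The member median lies well below that of all entries in eri-1 exos-1 (-2.37 and -0.32) and in the NRDE-3 library with exos-10 (-0.16 and 2.14).

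Of 245 members that met the minimum in all 5 exosome comparisons, 164 had a ratio below 1 in every one and 9 above 1 in every one (all entries, 24.8% and 10.7%). Of the 164, 91 belong to the near-equal sets described above, with 24 in the K10B3.2 set and 24 in the ZK250.4 set. Of the 9, 0 do. At least 2-fold lower in all 5 were 51 members, and at least 2-fold higher in all 5 were C34D4.5 and Y76B12C.5 (all entries, 7.75% and 5.8%). Of the 51, 26 belong to the near-equal sets, 20 of them to the ZK250.4 set alone, while 25 belong to none. Entries of the same set cannot be taken as separate observations. The dis-3 and exos-1 comparisons with N2 share the N2 library and the other 3 share eri-1(mg366), so these counts describe the members and are no count of independent repeats. Among abundant members, Y20F4.9 had 1049 reads for dis-3(ust56), 381 for exos-1(ust57), against 2572 in N2. It had 631, 615 and 355 reads in eri-1 dis-3, eri-1 exos-1 and eri-1 exos-10, against 1437 in eri-1(mg366). Its level was 6.71-fold lower in exos-1(ust57) than in N2 (6.02 to 7.49) and 5.82-fold lower in eri-1 exos-1 than in eri-1(mg366) (5.30 to 6.41).

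Y43F4A.2 had 369 reads for dis-3(ust56), 277 for exos-1(ust57), against 1614 in N2, and 359, 239 and 242 in eri-1 dis-3, eri-1 exos-1 and eri-1 exos-10, against 945 in eri-1(mg366). Its largest difference was in eri-1 exos-1, 9.85-fold lower (8.54 to 11.4). Other abundant members held their level better in some mutants. Y73B6BL.16 had 1745 and 1553 reads in dis-3(ust56) and exos-1(ust57), against 1587 in N2. R13D11.7 had 1626 and 2665 reads in these mutants, against 2286 in N2, a ratio of 1.17 in exos-1(ust57) (1.11 to 1.24), yet it was 2.24-fold lower in eri-1 exos-1 than in eri-1(mg366) (2.07 to 2.42).

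Some of the lowest ratios came from 1 clone. All 6 members named for F57G4 were lower in the exosome mutants, and together they had 170 reads for dis-3(ust56), 40 for exos-1(ust57), against 2635 in N2. In the eri-1 background they had 275, 160 and 148 reads in eri-1 dis-3, eri-1 exos-1 and eri-1 exos-10, against 1497 in eri-1(mg366). These sums were 15.5-fold lower for dis-3(ust56) (13.2 to 18.2) and 65.5-fold lower for exos-1(ust57) (48.0 to 91.9) than for N2. They were 8.29-fold, 23.3-fold and 6.16-fold lower in the eri-1 mutants than in eri-1(mg366). The largest share was on F57G4.7, a pseudogenic transcript, with 59 and 16 reads in dis-3(ust56) and exos-1(ust57), against 1372 in N2. F57G4.6 had 23 and 2 reads, against 440 in N2, and F57G4.5 had 12 and 0, against 186 in N2. F57G4.9 had 10 and 4, against 441 in N2. There were 98 reads on the 6 members in eri-1 dis-3 rrf-1 rrf-2, against 275 in eri-1 dis-3, which was 2.70-fold lower (2.14 to 3.44). The RNAi libraries held 2933, 2847 and 3885 of these reads with fib-1, nol-56 and mtr-4 RNAi, against 4181 with L4440.

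**Figure D3:**
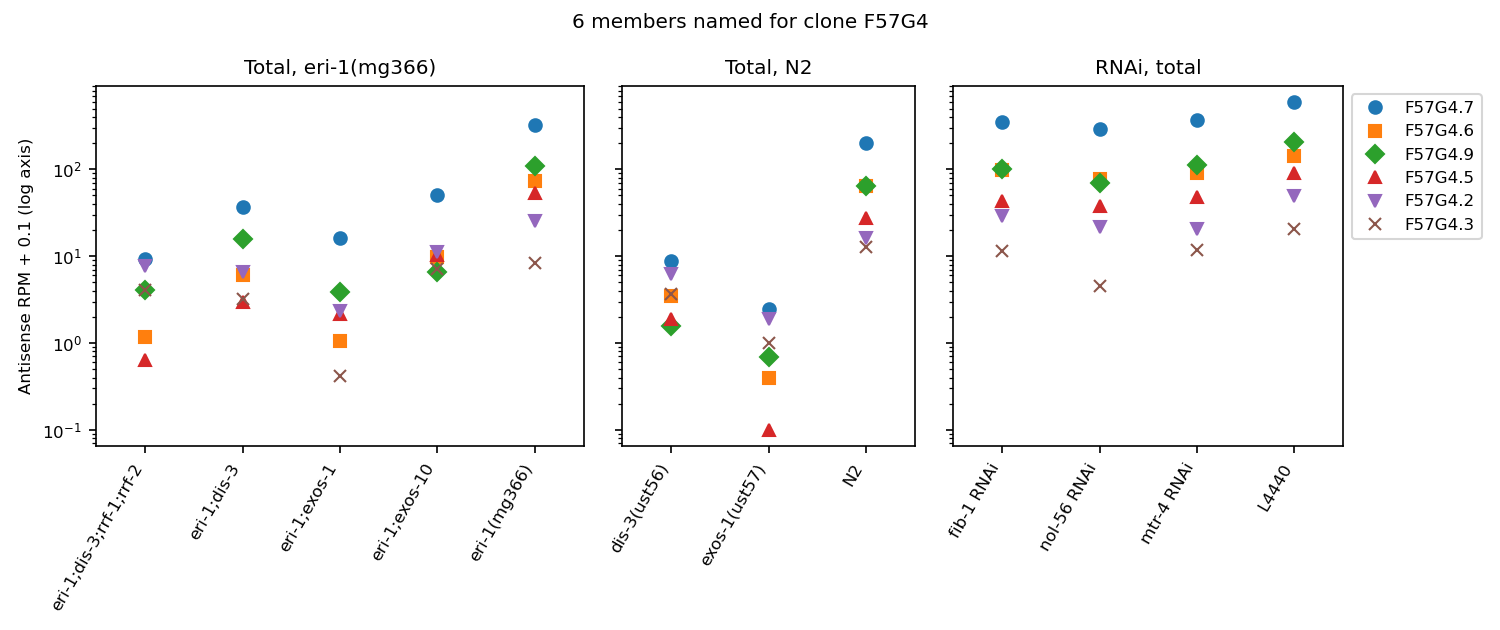
Antisense RPM plus 0.1 (log axis) of the 6 members named for clone F57G4 in the 12 total libraries, 1 symbol a member. The exosome mutants lie below N2 and eri-1(mg366) for F57G4.7, F57G4.6, F57G4.9 and F57G4.5, and the 3 knockdown libraries lie below L4440.

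The near-equal sets did not all behave alike. The ZK250.4 set of 24 entries had 1173 and 902 reads in dis-3(ust56) and exos-1(ust57), against 3182 in N2, with similar normalization numbers, and 217, 86.1 and 329 RPM in eri-1 dis-3, eri-1 exos-1 and eri-1 exos-10, against 918 RPM in eri-1(mg366). It was 10.7-fold lower in eri-1 exos-1. The F26H9.3 set of 8 entries went the other way in the N2 background, with 186 and 286 RPM in dis-3(ust56) and exos-1(ust57), against 121 RPM in N2, a ratio of 2.36 in exos-1(ust57) (2.18 to 2.57). In the eri-1 background this set had 231, 176 and 318 RPM in eri-1 dis-3, eri-1 exos-1 and eri-1 exos-10, against 272 RPM in eri-1(mg366), much closer to its control than the ZK250.4 set. The K10B3.2 set of 36 entries lay between, with 163 and 254 RPM in dis-3(ust56) and exos-1(ust57), against 285 RPM in N2.

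A few low members were higher in the exosome mutants. Y76B12C.5 had 90 reads for dis-3(ust56), 290 for exos-1(ust57), against 9 in N2, and 57, 146 and 30 in eri-1 dis-3, eri-1 exos-1 and eri-1 exos-10, against 5 in eri-1(mg366). The ratio was 32.4 for exos-1(ust57) (16.8 to 71.6) and 11.7 for eri-1 exos-1 (4.91 to 36.6). C34D4.5 had 172 and 271 reads in dis-3(ust56) and exos-1(ust57), against 31 in N2, a ratio of 8.79 in exos-1(ust57) (6.05 to 13.2), and 113 reads in eri-1 exos-10, against 27 in eri-1(mg366). F56C9.2 had 122 and 158 reads, against 10 in N2, and C38D9.3 had 144 and 83, against 12 in N2. These members contributed little to the sum. C46G7.3 was more abundant: it had 1131 and 1764 reads in dis-3(ust56) and exos-1(ust57), against 814 in N2, and 844, 1100 and 625 reads in eri-1 dis-3, eri-1 exos-1 and eri-1 exos-10, against 433 in eri-1(mg366). Its ratio was 2.37 in eri-1 exos-10 (2.09 to 2.69) and 1.02 in eri-1 exos-1, whose interval (0.911 to 1.14) holds 1.

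Without the exosome alleles, eri-1(mg366) had more transposon siRNAs than N2: 15095 RPM, against 10452 RPM in N2, a ratio of 1.44 (1.43 to 1.46), which by all counted reads was 1.01. Of 254 members, 55 were at least 2-fold higher and 5 lower (all entries, 14.5% and 21.6%), and the median log2 ratio was 0.67 for members and -0.17 for all entries. Sense piRNA reads were 15414 RPM in eri-1(mg366), against 6235 RPM in N2, and sense lin-4 was 2145 RPM, against 284 RPM. Sense let-7 went the other way, with 2086 RPM in eri-1(mg366), against 3265 RPM in N2. Per piRNA read the ratio of the member sum was 0.584, and per sense miRNA read 0.796, so the direction depended on the measure used for scaling. The libraries also differed in reads on nrde-3 itself. Sense nrde-3 reads were 476 in eri-1(mg366), against 30 in N2, and antisense reads were 831, against 5. Sense nrde-3 reads were 262 to 516 over the L3 total libraries with eri-1(mg366), and 14 to 59 over those of the N2 background. The part of this difference in the member sum was not tested. Per the study, its CRISPR/Cas9 gene deletions were made in eri-1(mg366) worms that carry a 3xFLAG::GFP::NRDE-3 transgene. The sample titles name this transgene for the NRDE-3 libraries only. Effects of eri-1(mg366) and of a possible transgene on the total libraries could therefore not be told apart. Some members were nearly absent with eri-1(mg366). T25G12.8 had 1 read in eri-1(mg366), and 0 to 4 over all 9 total libraries with this allele, against 154 in N2. T16A1.9 had 3 reads in eri-1(mg366), and 0 to 35 over the 9 libraries, against 169 in N2. In dis-3(ust56) and exos-1(ust57) T25G12.8 had 353 and 364 reads and T16A1.9 had 529 and 219. In both, dis-3(ust56) was above N2, with a ratio of 2.30 for T25G12.8 and 3.14 for T16A1.9 (2.63 to 3.75), which is the opposite direction to the member sum. The 3 L3 libraries of the N2 background stand above all 9 others for both members.

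RRF-2 and RRF-1 were removed in the eri-1 dis-3 background. The members summed to 6788 RPM in eri-1 dis-3 rrf-1 rrf-2, against 5823 RPM in eri-1 dis-3, a ratio of 1.17 (1.15 to 1.19). Of 239 members, 6 were at least 2-fold higher and 7 lower (all entries, 20.1% and 7.92%), with a median log2 ratio of 0.21 for members and 0.40 for all entries. Of the 14 comparisons this was the one with the fewest members past 2-fold. The 7 lower members were F57G4.5, F57G4.6, F57G4.7 and F57G4.9, then ZC132.5, Y53G8AM.1 and F15A2.7; ZC132.5 had 11 reads in eri-1 dis-3 rrf-1 rrf-2, against 45 in eri-1 dis-3. The 6 higher members were R11E3.3, Y55F3C.6, H12D21.8, F53C3.9, K10B3.2 and F44E2.2c, of which F44E2.2c had 27 reads, against 9 in eri-1 dis-3. Y55F3C.6, H12D21.8 and K10B3.2 are entries of near-equal sets, whose summed levels changed by less than 2-fold: the ratio was 1.04 for the K10B3.2 set (0.928 to 1.17), 1.31 for the W03G1.4 set, which holds Y55F3C.6, and 1.55 for the R03G8.2 set, which holds H12D21.8. Sense piRNA reads were 9742 RPM, against 10212 RPM in eri-1 dis-3. The miRNA markers differed more: sense let-7 was 905 RPM, against 128 RPM, and sense lin-4 was 1734 RPM, against 1337 RPM. Sense mir-35 to mir-42 was 2543 RPM, against 1081 RPM in eri-1 dis-3. The part of stage or germline content in this comparison was not tested.

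The make-up of transposon siRNAs in the NRDE-3 libraries differed from that in total RNA. In the control IP the members summed to 11354 RPM, against 15095 RPM in total RNA of eri-1(mg366), a ratio of 0.752 (0.738 to 0.766), and 13 of 249 members were at least 2-fold higher and 152 lower than in total RNA (all entries, 34.9% and 29.7%). The median log2 ratio was -1.24 for members and 0.18 for all entries. T27C5.9 had 468 RPM in the NRDE-3 control, against 977 RPM in eri-1(mg366), and the ZK250.4 set had 118 RPM, against 918 RPM. Members made up 4.42% of all antisense reads in the NRDE-3 control, against 5.52% in eri-1(mg366).

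Against this, 2 members that were rare in total RNA, ZC132.5 and Y60A3A.27, made up much of the member reads in the NRDE-3 libraries other than that with dis-3 rrf-1 rrf-2. ZC132.5 had 390, 283, 19670, 8979 and 4272 reads in the NRDE-3 libraries with dis-3 rrf-1 rrf-2, dis-3, exos-1, exos-10 and no further mutation (the control), against 11, 45, 230, 62 and 23 reads in the total libraries of the same genotypes. Its level was 3020 RPM in the NRDE-3 control, against 9.04 RPM in eri-1(mg366), 334-fold higher (222 to 527). It alone was 4.98% of all member reads with dis-3 rrf-1 rrf-2 and 39.1% in the library labelled exos-1, against 26.6% in the NRDE-3 control. Y60A3A.27 had 19, 53, 4560, 2893 and 2380 reads in the same 5 NRDE-3 libraries, against 28, 30, 90, 36 and 19 in total RNA, and was 225-fold higher in the NRDE-3 control than in eri-1(mg366) (144 to 375). ZC132.5 and Y60A3A.27 together gave 5.22%, 23.9%, 48.2%, 41.6% and 41.4% of the member reads in these 5 libraries, against 0.109% to 1.53% in their total libraries. Without them the control ratio of IP to total was 0.441. The share of both was lowest where rrf-1 and rrf-2 were lost. ZC132.5 had 550 RPM in the NRDE-3 library with dis-3 rrf-1 rrf-2, against 1942 RPM with dis-3, a ratio of 0.283 (0.242 to 0.331), and Y60A3A.27 had 26.8 RPM, against 364 RPM, a ratio of 0.0737 (0.0412 to 0.127). Whether other transcripts overlap these members could not be read from the tables, which give no positions.

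**Figure D4:**
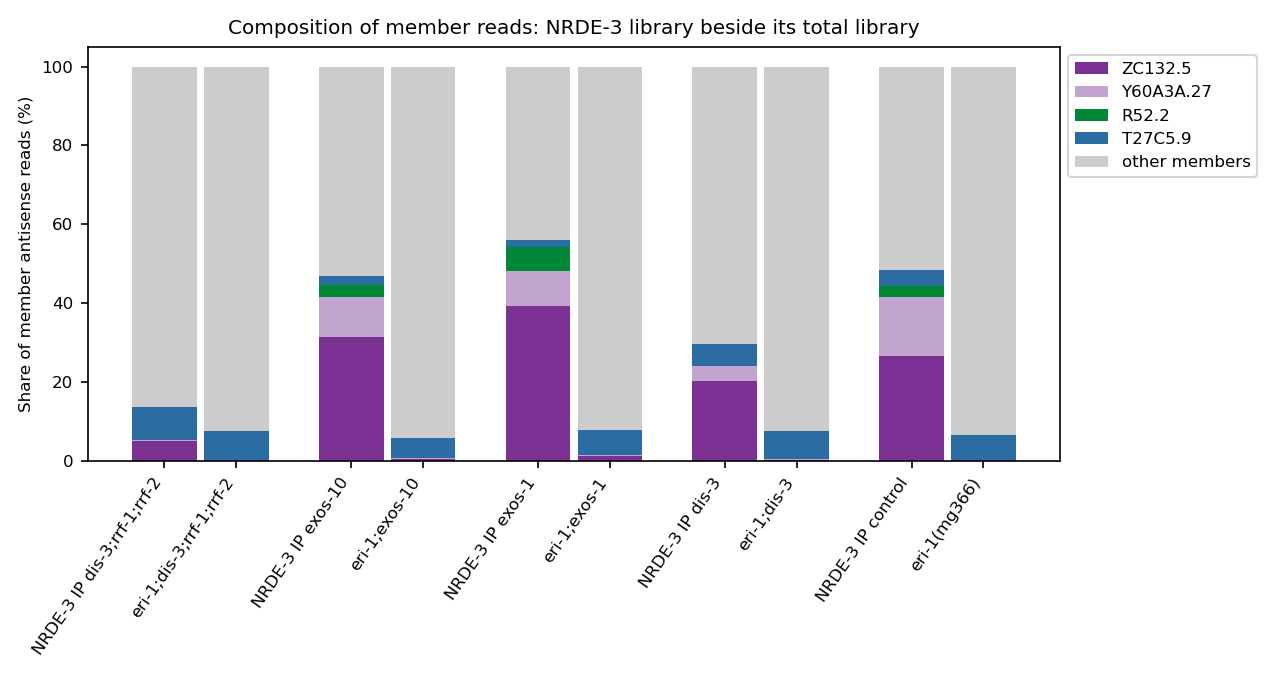
Share of all member antisense reads (percent, y axis) held by ZC132.5, Y60A3A.27, R52.2, T27C5.9 and the other members in each NRDE-3 library (left bar of a pair) and its total library (right bar). ZC132.5 is 4.98% of member reads with dis-3 rrf-1 rrf-2 and 26.6% in the NRDE-3 control, while the other members hold most of every total library.

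R52.2 had more sense than antisense reads when summed over the 12 total libraries. It was also higher in the NRDE-3 libraries with exos-1, exos-10 and no further mutation, but not in the other 2. It had 1, 0, 3018, 863 and 470 antisense reads in the NRDE-3 libraries with dis-3 rrf-1 rrf-2, dis-3, exos-1, exos-10 and no further mutation, against 3, 0, 0, 0 and 0 in the matched total libraries. Set against a floor of 3 reads per library, it was at least 282-fold higher in the NRDE-3 control than in eri-1(mg366). With dis-3, where 0 reads were found, it was at least 16.1-fold lower than in the NRDE-3 control. R52.2 also had 62 antisense and 62 sense reads in exos-1(ust57), against 1 and 1 in N2. Its excess of sense reads lay in the RNAi libraries, with 182 sense and 40 antisense reads with L4440 and 128 and 12 with mtr-4 RNAi. K01D12.2, a pseudogenic transcript, had 11, 3, 1721 and 425 reads with dis-3 rrf-1 rrf-2, dis-3, exos-1 and exos-10, against 98 in the NRDE-3 control, and Y87G2A.12 had 14, 6, 1518 and 349, against 57. Both were highest in the library labelled exos-1: K01D12.2 by a ratio of 8.81 to the NRDE-3 control (7.18 to 10.9) and Y87G2A.12 by 13.4 (10.3 to 17.7).

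Among the NRDE-3 libraries, the member sum was 9648 RPM with dis-3, 17825 RPM with exos-1 and 9700 RPM with exos-10, against 11354 RPM in the control. The ratios were 0.850 (0.804 to 0.897), 1.57 (1.54 to 1.60) and 0.854 (0.838 to 0.871). With dis-3, 44 of 138 members that met the minimum were at least 2-fold higher and 14 lower (all entries, 54.1% and 5.96%). With exos-1, 59 of 236 were higher and 43 lower (all entries, 82.5% and 3.3%), and with exos-10, 32 of 225 were higher and 34 lower (all entries, 79.9% and 3.06%). The median log2 ratio of the members was 0.36, 0.00 and -0.16 with dis-3, exos-1 and exos-10. Over all entries it was 1.16, 2.17 and 2.14, above the members each time. An entry can meet the minimum through 1 library alone, and 3524, 15137 and 14967 entries met it in these comparisons. The part of this filter in the gap was not tested. Antisense reads on protein-coding genes were 306136, 444692 and 406013 RPM, against 117439 RPM in the control, while sense let-7 was 3246, 593 and 589 RPM, against 10502 RPM in the control. Their part in the result was not tested. Scaled per antisense protein-coding read, the ratios of the member sum were 0.326, 0.415 and 0.247, and per sense miRNA read they were 7.09, 15.9 and 11.3, so their direction depended on the scaling. By all counted reads they were 0.112, 3.52 and 1.82. The counts moved as well. Per antisense protein-coding read 7, 6 and 2 members were higher and 71, 175 and 184 lower with dis-3, exos-1 and exos-10. With a pseudocount of 5 reads the higher members were 92, 33 and 13, and with a minimum of 50 reads 4, 27 and 11. Without ZC132.5 and Y60A3A.27 the dis-3 ratio was 1.10.

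The members differed among themselves in these libraries. Y20F4.9 had 42, 2646 and 1196 reads with dis-3, exos-1 and exos-10, against 555 in the NRDE-3 control. With the label exos-1 its ratio was 2.39 (2.18 to 2.63), where the total libraries had shown 0.172 for eri-1 exos-1 over eri-1(mg366). F44E2.2c had 223 and 207 reads with exos-1 and exos-10, against 5 in the control. T23B12.10 had 32 and 41 reads with exos-1 and exos-10, against 112, a ratio of 0.143 with exos-1 (0.0936 to 0.214). Y75D11A.5 had 0, 17 and 23 reads with dis-3, exos-1 and exos-10, against 105, a ratio of 0.0812 with exos-1 (0.0456 to 0.136). The F57G4 members, so low in total RNA of the exosome mutants, had 11, 136 and 148 reads with dis-3, exos-1 and exos-10, against 206 in the control; their level with exos-1 was 3.02-fold lower (2.42 to 3.78).

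With rrf-1 and rrf-2 lost, the NRDE-3 library had 11051 RPM on the members, against 9648 RPM with dis-3 alone, a ratio of 1.15 (1.08 to 1.21). By all counted reads this ratio was 3.78, and without ZC132.5 and Y60A3A.27 it was 1.43. Of 142 members, 46 were at least 2-fold higher and 25 lower (all entries, 28.2% and 12.2%), but the higher members were 9 with a pseudocount of 5 reads and 18 with a minimum of 50. T27C5.9 had 919 RPM with dis-3 rrf-1 rrf-2, against 556 RPM with dis-3, while ZC132.5, Y60A3A.27 and R52.2 were at or near their lowest in the series of IPs. The count rests on a library of 1406 member reads, in which 176 of the 269 members had any read.

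Set against their matched total libraries, the NRDE-3 libraries with dis-3, exos-1, exos-10 and dis-3 rrf-1 rrf-2 had member sums at ratios of 1.66 (1.57 to 1.75), 5.38 (5.30 to 5.47), 1.18 (1.15 to 1.20) and 1.63 (1.59 to 1.67). In these, 98 of 234, 119 of 249, 25 of 239 and 89 of 238 members were at least 2-fold higher and 15, 11, 98 and 8 were lower. All entries gave 66.8%, 88.9%, 79.6% and 77% higher and 7.03%, 2.86%, 6.05% and 4.96% lower. Per antisense protein-coding read the ratios were 0.284, 0.565, 0.301 and 0.340, all below 1. By all counted reads they were 0.0657, 2.48, 1.53 and 0.245, and without ZC132.5 and Y60A3A.27 those with exos-1 and exos-10 were 2.83 and 0.694.

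**Figure D5:**
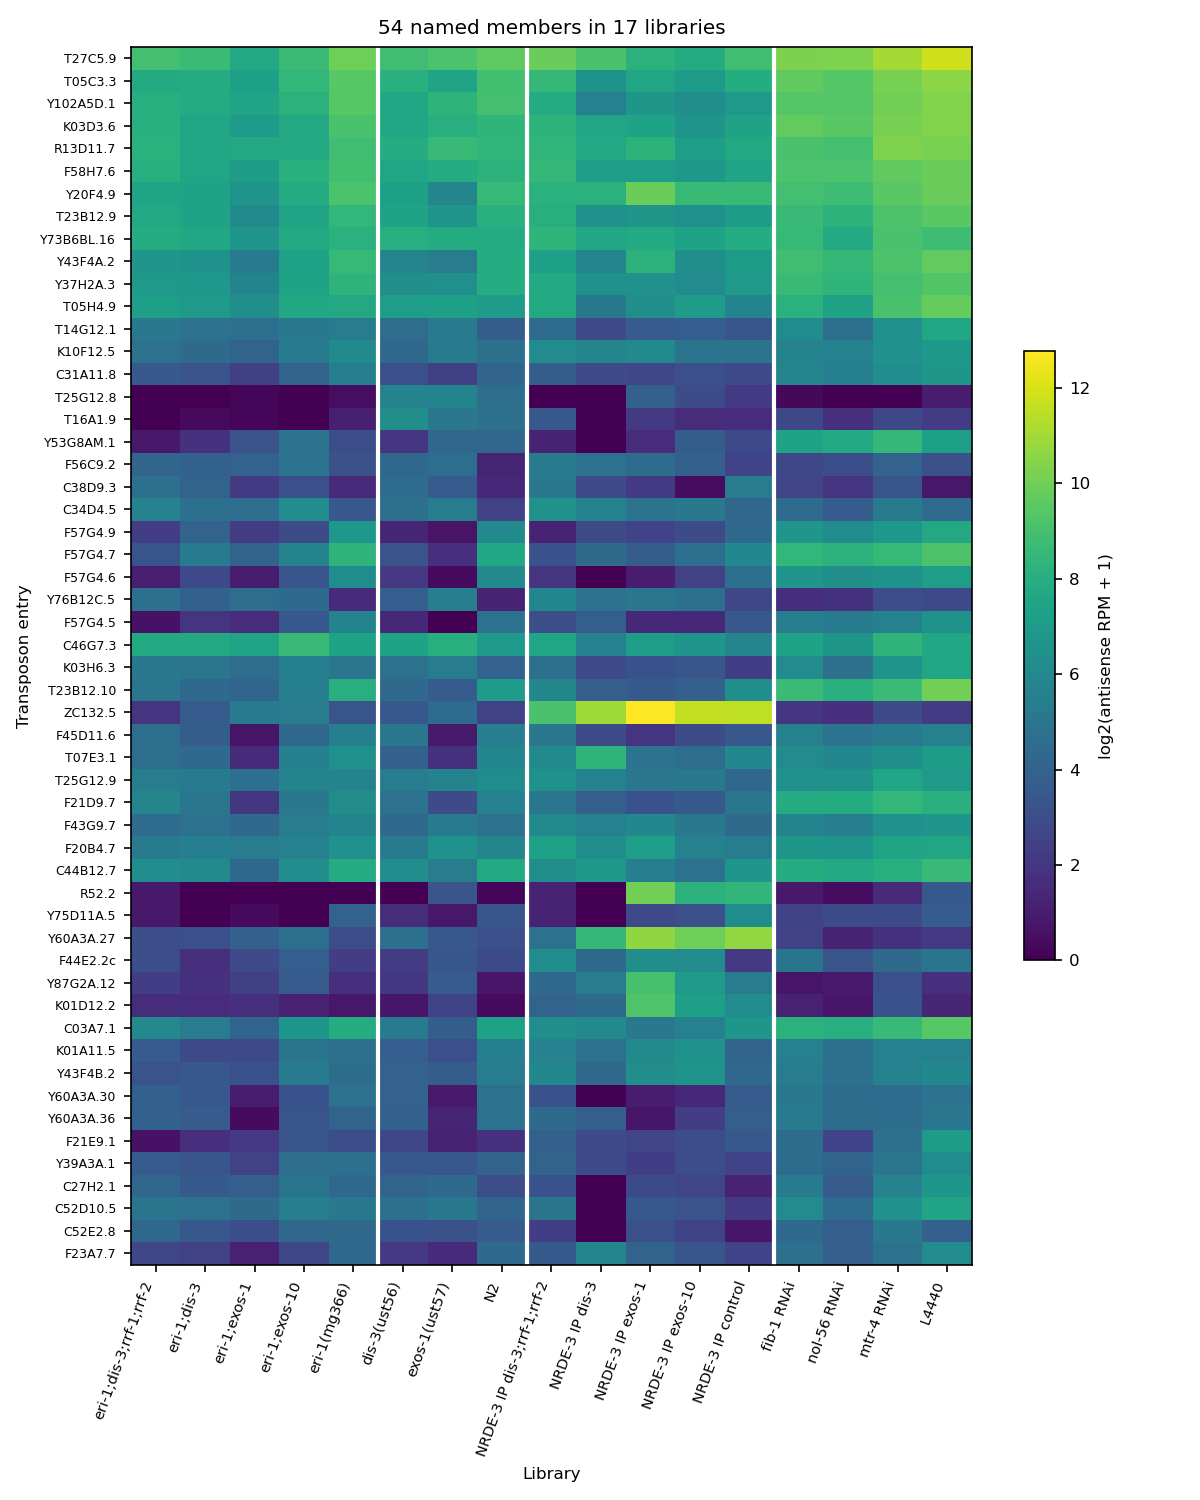
Antisense level (color, log2 of RPM plus 1) of the 54 named members (rows) in the 17 libraries (columns); white lines separate the total libraries of the eri-1(mg366) background, those of the N2 background, the NRDE-3 libraries and the RNAi libraries. ZC132.5 is bright in the 5 NRDE-3 columns and Y60A3A.27 in those other than dis-3 rrf-1 rrf-2, and T25G12.8 is dark in every total library with eri-1(mg366).

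In the RNAi libraries, labelled young adult, knockdown of each nucleolar or exosome factor went with a lower member sum than the empty vector. The sum was 20070 RPM with fib-1 RNAi, 15917 RPM with nol-56 RNAi and 28956 RPM with mtr-4 RNAi, against 39373 RPM with L4440. These were 1.96-fold (1.95 to 1.98), 2.47-fold (2.45 to 2.49) and 1.36-fold (1.35 to 1.37) lower. With fib-1 RNAi, 1 of 263 members was at least 2-fold higher and 102 lower (all entries, 4.72% and 40.2%), with a median log2 ratio of -0.88 for members and -0.84 for all entries. With nol-56 RNAi, 1 of 263 was higher and 203 lower (all entries, 3.58% and 81.5%), with medians of -1.25 and -2.22, and with mtr-4 RNAi, 7 of 268 were higher and 26 lower (all entries, 10.5% and 55.8%), with medians of -0.34 and -1.18. In the last 2 the member median lay above that of all entries. Leaving the antisense reads of the fed gene out of the normalization number gave ratios of 0.567, 0.430 and 0.880 to L4440. Per antisense protein-coding read the ratios were 0.705, 0.978 and 0.812, and 17, 18 and 15 members were lower, so that with nol-56 RNAi the member sum was then close to that with L4440. The 3 comparisons share the L4440 library, and that library stood apart in other ways. The mir-35 to mir-42 miRNAs, which mark oocytes and embryos, had 1755, 248 and 1655 RPM with fib-1, nol-56 and mtr-4 RNAi, against 10934 RPM with L4440, and sense piRNA reads were 24760, 20384 and 46696 RPM, against 36015 RPM. Their part in the member sums was not tested.

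T27C5.9 had 5591, 6978 and 12477 reads with fib-1, nol-56 and mtr-4 RNAi, against 14032 with L4440, and was 3.07-fold lower with fib-1 RNAi (2.98 to 3.17). T23B12.10 had 1948, 1524 and 2502 reads, against 4055 with L4440. Of the 12 near-equal sets, F26H9.3 had the lowest ratio with nol-56 RNAi: 542, 198 and 717 RPM with fib-1, nol-56 and mtr-4 RNAi, against 1458 RPM with L4440, which was 7.38-fold lower with nol-56 RNAi. F21E9.1 had 101, 28 and 150 reads, against 511. Y53G8AM.1 had 752, 1238 and 2138 reads with fib-1, nol-56 and mtr-4 RNAi, against 554 with L4440, a ratio of 2.46 with mtr-4 RNAi (2.24 to 2.71) and of 1.11 with fib-1 RNAi, whose interval (0.992 to 1.24) holds 1. It had 19 reads in L3 eri-1(mg366), against 119 in N2.

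Genes of the small RNA pathways themselves are also siRNA targets and were counted as a listed group of 35 genes, after leaving out those mutated, tagged or knocked down. Among them are the mutator genes mut-7 and mut-16, the PIWI gene prg-1 and the nuclear Argonaute gene hrde-1. Beside each count stands the share of all entries in the same direction. Antisense reads were at least 2-fold lower for 9 of 35 genes in dis-3(ust56), mut-7, mut-14 and rde-1 among them (all entries, 36.5%). In exos-1(ust57) 2 were higher (all entries, 25.4%) and 1 lower (15.2%). In eri-1 dis-3, 14 of 30 were lower (all entries, 41.3%), in eri-1 exos-1 5 of 35 were lower (30.7%) and 2 higher (20.6%), and in eri-1 exos-10 16 of 31 were higher (38.6%). In the NRDE-3 libraries 21 of 27, 34 of 35 and 34 of 35 were higher with dis-3, exos-1 and exos-10 (all entries, 54.1%, 82.5% and 79.9%). With fib-1, nol-56 and mtr-4 RNAi 14, 34 and 31 of 35 were lower (all entries, 40.2%, 81.5% and 55.8%). In eri-1 exos-10 the median log2 ratio was 1.06 for this group, beside 0.58 for all entries and -0.87 for the transposon members, and in the exos-10 NRDE-3 library it was 2.75, beside 2.14 and -0.16.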

How the data were processed

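Small RNAs were sequenced from 5′-phosphate-independent libraries, sized at 18 to 40 nt per the labels and at 18 to 30 nt per the study's methods. Per the labels and the study's methods, the authors mapped reads with Bowtie2 (its version is not given in the sources used here) to the genome and the WS243 transcripts and deposited raw sense and antisense read counts per transcript, 1 table a library. These counts were divided by the normalization number (all counted reads without those sense to rRNA or to protein-coding genes), which stands in for the mapped total. Ratios per entry used a pseudocount of 1 read with a minimum of 10 antisense reads in 1 of the libraries; an entry at least 2-fold apart was counted as higher or lower. Intervals of ratios are exact conditional binomial, of levels exact Poisson and of shares Clopper-Pearson, all at 95%; a count of 0 was set at a floor of 3 reads. Members and gene lists were chosen with earlier results of these data known. Members named were the 12 most abundant, up to 3 per direction and comparison with at least 100 reads, and a few singled out after their values were seen (the other F57G4 members, those at the threshold, and members in counts of 7 or fewer). Alternatives changed the denominator, pseudocount, minimum, fold and members. Near-equal sets used members with at least 500 reads. Gene positions came from Ensembl 115 (WBcel235). Scripts were tested on simulated data and run in Python 3.11.15 with scipy 1.17.1, numpy 2.4.6, matplotlib 3.10.9 and pandas 2.3.3. Sequences and transposon families were not used here.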

Additional observations from a re-analysis of the deposited data

Results flagged for a closer look

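The member sum moved in opposite directions in the total and the NRDE-3 libraries labelled exos-1(ust57). In total RNA it was 3310 RPM in eri-1 exos-1, against 15095 RPM in eri-1(mg366), a ratio of 0.219. In the NRDE-3 libraries it was 17825 RPM with the label exos-1, against 11354 RPM in the control, a ratio of 1.57. The difference between these ratios was not tested, since each rests on 1 library a side. Per antisense protein-coding read the NRDE-3 ratio was 0.415, on the same side as total RNA, and the exos-1 deletion was not visible in the sense reads of that NRDE-3 library. Its antisense exos-1 level was 4.97 RPM, below the 7.07 RPM of the NRDE-3 control, from 14 and 10 reads.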

How the results depend on the processing

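One choice was changed at a time for the ratios of summed reads, the counts of members and of pathway genes and the strand shares, and the causes of the shifts were not tested. Ratios of single members, of the F57G4 sum and of near-equal sets were not recomputed, but another denominator multiplies them by the same factor as the summed ratio of that comparison. Alternatives for the counts over 5 exosome comparisons, for those between NRDE-3 and total libraries and for the pathway genes were added after seeing the data. The counts over 5 exosome comparisons stayed within 1.5 times in 9 recomputations, were lower in 6 and higher in 3, and the pathway gene counts stayed so in 100, were lower in 32 and higher in 8. No paired analysis was possible because each group has 1 library. Leaving out members that overlap exons of other genes was not run, since the tables give no positions. Scaling by sense piRNA reads, leaving out ZC132.5 and Y60A3A.27, and leaving out the RNAi target's reads were chosen after seeing the data. The direction of the 14 ratios of summed reads was kept in 13 when scaled by all counted reads, 13 by antisense protein-coding reads, 11 by sense miRNA reads and 14 without the 5 most abundant members, and in 7 of 10 by sense piRNA reads.

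Scaled by all counted reads, ratios of summed reads became 1.01 for eri-1(mg366) over N2, 0.703 for dis-3(ust56) over N2, 0.493 for exos-1(ust57) over N2, 0.317 for eri-1 exos-1 over eri-1(mg366), 0.266 for eri-1 exos-10 over eri-1(mg366), 1.01 for eri-1 dis-3 rrf-1 rrf-2 over eri-1 dis-3, 0.112 for NRDE-3 IP dis-3 over NRDE-3 IP control, 3.52 for NRDE-3 IP exos-1 over NRDE-3 IP control, 1.82 for NRDE-3 IP exos-10 over NRDE-3 IP control, 3.78 for NRDE-3 IP dis-3 rrf-1 rrf-2 over NRDE-3 IP dis-3, 0.574 for fib-1 RNAi over L4440, 0.424 for nol-56 RNAi over L4440 and 0.977 for mtr-4 RNAi over L4440. Scaled by sense miRNA reads, ratios of summed reads became 0.796 for eri-1(mg366) over N2, 0.348 for dis-3(ust56) over N2, 0.593 for exos-1(ust57) over N2, 0.442 for eri-1 dis-3 over eri-1(mg366), 0.455 for eri-1 exos-1 over eri-1(mg366), 1.03 for eri-1 dis-3 rrf-1 rrf-2 over eri-1 dis-3, 7.09 for NRDE-3 IP dis-3 over NRDE-3 IP control, 15.9 for NRDE-3 IP exos-1 over NRDE-3 IP control, 11.3 for NRDE-3 IP exos-10 over NRDE-3 IP control, 0.410 for fib-1 RNAi over L4440, 0.231 for nol-56 RNAi over L4440 and 0.618 for mtr-4 RNAi over L4440. Scaled by antisense protein-coding reads, ratios of summed reads became 1.35 for eri-1(mg366) over N2, 0.684 for dis-3(ust56) over N2, 0.485 for exos-1(ust57) over N2, 0.670 for eri-1 dis-3 over eri-1(mg366), 0.428 for eri-1 exos-1 over eri-1(mg366), 0.479 for eri-1 exos-10 over eri-1(mg366), 1.03 for eri-1 dis-3 rrf-1 rrf-2 over eri-1 dis-3, 0.326 for NRDE-3 IP dis-3 over NRDE-3 IP control, 0.415 for NRDE-3 IP exos-1 over NRDE-3 IP control, 0.247 for NRDE-3 IP exos-10 over NRDE-3 IP control, 1.23 for NRDE-3 IP dis-3 rrf-1 rrf-2 over NRDE-3 IP dis-3, 0.705 for fib-1 RNAi over L4440, 0.978 for nol-56 RNAi over L4440 and 0.812 for mtr-4 RNAi over L4440. Scaled by sense piRNA reads, ratios of summed reads became 0.584 for eri-1(mg366) over N2, 1.72 for dis-3(ust56) over N2, 0.675 for exos-1(ust57) over N2, 0.582 for eri-1 dis-3 over eri-1(mg366), 1.05 for eri-1 exos-1 over eri-1(mg366), 0.713 for eri-1 exos-10 over eri-1(mg366), 1.22 for eri-1 dis-3 rrf-1 rrf-2 over eri-1 dis-3, 0.741 for fib-1 RNAi over L4440, 0.714 for nol-56 RNAi over L4440 and 0.567 for mtr-4 RNAi over L4440. Leaving out the 5 most abundant members, ratios of summed reads became 0.569 for exos-1(ust57) over N2, 0.209 for eri-1 exos-1 over eri-1(mg366), 0.576 for eri-1 exos-10 over eri-1(mg366), 1.65 for NRDE-3 IP exos-1 over NRDE-3 IP control, 0.889 for NRDE-3 IP exos-10 over NRDE-3 IP control, 1.04 for NRDE-3 IP dis-3 rrf-1 rrf-2 over NRDE-3 IP dis-3, 0.527 for fib-1 RNAi over L4440 and 0.399 for nol-56 RNAi over L4440. Leaving out ZC132.5 and Y60A3A.27, ratios of summed reads became 1.10 for NRDE-3 IP dis-3 over NRDE-3 IP control, 1.39 for NRDE-3 IP exos-1 over NRDE-3 IP control and 1.43 for NRDE-3 IP dis-3 rrf-1 rrf-2 over NRDE-3 IP dis-3. Leaving out antisense reads of the RNAi target, ratios of summed reads became 0.567 for fib-1 RNAi over L4440, 0.430 for nol-56 RNAi over L4440 and 0.880 for mtr-4 RNAi over L4440. Scaled by all counted reads, ratios of NRDE-3 to total library became 0.223 for NRDE-3 IP control over eri-1(mg366), 0.0657 for NRDE-3 IP dis-3 over eri-1 dis-3, 2.48 for NRDE-3 IP exos-1 over eri-1 exos-1, 1.53 for NRDE-3 IP exos-10 over eri-1 exos-10 and 0.245 for NRDE-3 IP dis-3 rrf-1 rrf-2 over eri-1 dis-3 rrf-1 rrf-2. Scaled by antisense protein-coding reads, ratios of NRDE-3 to total library became 0.583 for NRDE-3 IP control over eri-1(mg366), 0.284 for NRDE-3 IP dis-3 over eri-1 dis-3, 0.565 for NRDE-3 IP exos-1 over eri-1 exos-1, 0.301 for NRDE-3 IP exos-10 over eri-1 exos-10 and 0.340 for NRDE-3 IP dis-3 rrf-1 rrf-2 over eri-1 dis-3 rrf-1 rrf-2. Leaving out ZC132.5 and Y60A3A.27, ratios of NRDE-3 to total library became 0.441 for NRDE-3 IP control over eri-1(mg366), 1.27 for NRDE-3 IP dis-3 over eri-1 dis-3, 2.83 for NRDE-3 IP exos-1 over eri-1 exos-1, 0.694 for NRDE-3 IP exos-10 over eri-1 exos-10 and 1.55 for NRDE-3 IP dis-3 rrf-1 rrf-2 over eri-1 dis-3 rrf-1 rrf-2. With at least 50 reads in either library, counts of members past the fold became 34 for eri-1(mg366) over N2 (higher), 10 for dis-3(ust56) over N2 (higher), 107 for eri-1 dis-3 over eri-1(mg366) (lower), 3 for eri-1 exos-1 over eri-1(mg366) (higher), 131 for eri-1 exos-1 over eri-1(mg366) (lower), 5 for eri-1 exos-10 over eri-1(mg366) (higher), 61 for eri-1 exos-10 over eri-1(mg366) (lower), 2 for eri-1 dis-3 rrf-1 rrf-2 over eri-1 dis-3 (higher), 2 for eri-1 dis-3 rrf-1 rrf-2 over eri-1 dis-3 (lower), 4 for NRDE-3 IP dis-3 over NRDE-3 IP control (higher), 27 for NRDE-3 IP exos-1 over NRDE-3 IP control (higher), 9 for NRDE-3 IP exos-1 over NRDE-3 IP control (lower), 11 for NRDE-3 IP exos-10 over NRDE-3 IP control (higher), 10 for NRDE-3 IP exos-10 over NRDE-3 IP control (lower), 18 for NRDE-3 IP dis-3 rrf-1 rrf-2 over NRDE-3 IP dis-3 (higher), 2 for NRDE-3 IP dis-3 rrf-1 rrf-2 over NRDE-3 IP dis-3 (lower), 0 for fib-1 RNAi over L4440 (higher), 0 for nol-56 RNAi over L4440 (higher) and 3 for mtr-4 RNAi over L4440 (higher). At 4-fold, counts of members past the fold became 1 for eri-1(mg366) over N2 (higher), 3 for eri-1(mg366) over N2 (lower), 5 for dis-3(ust56) over N2 (higher), 17 for dis-3(ust56) over N2 (lower), 13 for exos-1(ust57) over N2 (higher), 53 for exos-1(ust57) over N2 (lower), 2 for eri-1 dis-3 over eri-1(mg366) (higher), 45 for eri-1 dis-3 over eri-1(mg366) (lower), 3 for eri-1 exos-1 over eri-1(mg366) (higher), 5 for eri-1 exos-10 over eri-1(mg366) (higher), 20 for eri-1 exos-10 over eri-1(mg366) (lower), 0 for eri-1 dis-3 rrf-1 rrf-2 over eri-1 dis-3 (higher), 1 for eri-1 dis-3 rrf-1 rrf-2 over eri-1 dis-3 (lower), 16 for NRDE-3 IP dis-3 over NRDE-3 IP control (higher), 4 for NRDE-3 IP dis-3 over NRDE-3 IP control (lower), 15 for NRDE-3 IP exos-1 over NRDE-3 IP control (higher), 15 for NRDE-3 IP exos-1 over NRDE-3 IP control (lower), 9 for NRDE-3 IP exos-10 over NRDE-3 IP control (higher), 7 for NRDE-3 IP exos-10 over NRDE-3 IP control (lower), 8 for NRDE-3 IP dis-3 rrf-1 rrf-2 over NRDE-3 IP dis-3 (higher), 10 for NRDE-3 IP dis-3 rrf-1 rrf-2 over NRDE-3 IP dis-3 (lower), 3 for fib-1 RNAi over L4440 (lower), 0 for nol-56 RNAi over L4440 (higher), 29 for nol-56 RNAi over L4440 (lower), 3 for mtr-4 RNAi over L4440 (higher) and 3 for mtr-4 RNAi over L4440 (lower). With a pseudocount of 5 reads, counts of members past the fold became 3 for eri-1(mg366) over N2 (lower), 4 for eri-1 exos-1 over eri-1(mg366) (higher), 92 for NRDE-3 IP dis-3 over NRDE-3 IP control (higher), 3 for NRDE-3 IP dis-3 over NRDE-3 IP control (lower), 33 for NRDE-3 IP exos-1 over NRDE-3 IP control (higher), 13 for NRDE-3 IP exos-10 over NRDE-3 IP control (higher), 9 for NRDE-3 IP dis-3 rrf-1 rrf-2 over NRDE-3 IP dis-3 (higher) and 0 for nol-56 RNAi over L4440 (higher). Scaled by antisense protein-coding reads, counts of members past the fold became 8 for eri-1(mg366) over N2 (lower), 12 for eri-1 dis-3 over eri-1(mg366) (higher), 63 for eri-1 dis-3 over eri-1(mg366) (lower), 16 for eri-1 exos-1 over eri-1(mg366) (higher), 3 for eri-1 dis-3 rrf-1 rrf-2 over eri-1 dis-3 (higher), 7 for NRDE-3 IP dis-3 over NRDE-3 IP control (higher), 71 for NRDE-3 IP dis-3 over NRDE-3 IP control (lower), 6 for NRDE-3 IP exos-1 over NRDE-3 IP control (higher), 175 for NRDE-3 IP exos-1 over NRDE-3 IP control (lower), 2 for NRDE-3 IP exos-10 over NRDE-3 IP control (higher), 184 for NRDE-3 IP exos-10 over NRDE-3 IP control (lower), 2 for fib-1 RNAi over L4440 (higher), 17 for fib-1 RNAi over L4440 (lower), 9 for nol-56 RNAi over L4440 (higher), 18 for nol-56 RNAi over L4440 (lower) and 15 for mtr-4 RNAi over L4440 (lower). With no minimum of reads, counts of members past the fold became 12 for eri-1 dis-3 rrf-1 rrf-2 over eri-1 dis-3 (higher), 122 for NRDE-3 IP dis-3 over NRDE-3 IP control (higher), 53 for NRDE-3 IP exos-10 over NRDE-3 IP control (lower), 61 for NRDE-3 IP dis-3 rrf-1 rrf-2 over NRDE-3 IP dis-3 (lower) and 2 for nol-56 RNAi over L4440 (higher). With at least 50 reads in either library, counts between NRDE-3 and total libraries became 98 for NRDE-3 IP control over eri-1(mg366) (lower), 18 for NRDE-3 IP dis-3 over eri-1 dis-3 (higher), 45 for NRDE-3 IP exos-1 over eri-1 exos-1 (higher), 7 for NRDE-3 IP exos-1 over eri-1 exos-1 (lower), 14 for NRDE-3 IP exos-10 over eri-1 exos-10 (higher), 31 for NRDE-3 IP exos-10 over eri-1 exos-10 (lower), 19 for NRDE-3 IP dis-3 rrf-1 rrf-2 over eri-1 dis-3 rrf-1 rrf-2 (higher) and 2 for NRDE-3 IP dis-3 rrf-1 rrf-2 over eri-1 dis-3 rrf-1 rrf-2 (lower). At 4-fold, counts between NRDE-3 and total libraries became 64 for NRDE-3 IP control over eri-1(mg366) (lower), 48 for NRDE-3 IP dis-3 over eri-1 dis-3 (higher), 4 for NRDE-3 IP dis-3 over eri-1 dis-3 (lower), 60 for NRDE-3 IP exos-1 over eri-1 exos-1 (higher), 0 for NRDE-3 IP exos-1 over eri-1 exos-1 (lower), 14 for NRDE-3 IP exos-10 over eri-1 exos-10 (higher), 26 for NRDE-3 IP exos-10 over eri-1 exos-10 (lower), 23 for NRDE-3 IP dis-3 rrf-1 rrf-2 over eri-1 dis-3 rrf-1 rrf-2 (higher) and 1 for NRDE-3 IP dis-3 rrf-1 rrf-2 over eri-1 dis-3 rrf-1 rrf-2 (lower). With a pseudocount of 5 reads, counts between NRDE-3 and total libraries became 193 for NRDE-3 IP dis-3 over eri-1 dis-3 (higher), 2 for NRDE-3 IP dis-3 over eri-1 dis-3 (lower), 6 for NRDE-3 IP exos-1 over eri-1 exos-1 (lower) and 1 for NRDE-3 IP dis-3 rrf-1 rrf-2 over eri-1 dis-3 rrf-1 rrf-2 (lower). Scaled by antisense protein-coding reads, counts between NRDE-3 and total libraries became 9 for NRDE-3 IP dis-3 over eri-1 dis-3 (higher), 171 for NRDE-3 IP dis-3 over eri-1 dis-3 (lower), 11 for NRDE-3 IP exos-1 over eri-1 exos-1 (higher), 198 for NRDE-3 IP exos-1 over eri-1 exos-1 (lower), 11 for NRDE-3 IP exos-10 over eri-1 exos-10 (higher), 212 for NRDE-3 IP exos-10 over eri-1 exos-10 (lower), 5 for NRDE-3 IP dis-3 rrf-1 rrf-2 over eri-1 dis-3 rrf-1 rrf-2 (higher) and 176 for NRDE-3 IP dis-3 rrf-1 rrf-2 over eri-1 dis-3 rrf-1 rrf-2 (lower). Leaving out the 5 most abundant members, antisense shares became 95.8% for 12 total libraries and 84.6% for 5 NRDE-3 libraries.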
